A study of Mus musculus with 2 samples.

Results

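The oocyte genes described here are 40 genes chosen by name for their known roles in the female germ cell: the egg coat, oocyte growth factors, oocyte transcription factors, maternal-effect proteins and germline RNA proteins. All 40 symbols have a row among the 24421 rows of the count table. The data are total RNA-seq counts, after ribosomal RNA depletion, from whole ovaries of C57BL/6J mice aged 8 weeks. One library came from H19KO ovary, whose allele is labelled H19(Δ3), and the other from wild-type (WT) ovary, so there is 1 library per genotype. The sources used here do not state how many mice or ovaries went into a library, the cycle stage, or whether the knockout allele was homozygous. The study asks which ovarian genes depend on H19, a long noncoding RNA. H19 itself, the targeted gene, had 0 counts in the H19KO library against 672 in the WT library, which is at least 223-fold lower when 0 is taken to allow 3 counts.

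The H19KO library held 23041225 counts and the WT library 23335131. Levels are in CPM, a gene's counts over the TMM-scaled total of its library, and each log2 ratio is H19KO over WT. The interval in brackets after a ratio is its 95% exact binomial interval, which covers counting error only. With no replicate, no difference below can be set against the spread between animals, no p-value is given, and each comparison describes these libraries. A member is called lower where its whole interval lies below a ratio of 1, and spanning where the interval includes it.

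Oocytes are few in an ovary but hold a large store of RNA. A primordial oocyte is kept and activated under germline transcription factors such as FIGLA, NOBOX, SOHLH1 and LHX8. As it grows inside its follicle it secretes the zona pellucida, sends GDF9 and BMP15 to the surrounding granulosa cells, and accumulates the proteins and mRNAs that the early embryo uses before its own genome is switched on. In whole ovary RNA, fewer oocytes and less RNA per oocyte cannot be told apart.

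Most oocyte genes had a slightly lower level in the H19KO library. Of the 40, 37 had a mean of at least 1 CPM, and 33 of these 37 had a point ratio below equal, against 52.1% of all 13928 genes at that level. Of the 37, 20 were lower by the whole interval, 17 spanned equal and 0 were higher. Over all genes of at least 1 CPM, 24.0% were lower by this rule and 22.2% were higher. Among the 10409 genes within the CPM range of the members other than Dnmt1, 52.4% had a point ratio below equal and 21.0% were lower by the whole interval. The members' median log2 ratio was -0.27, beside -0.01 for all 13928 genes. All 40 members together had 21512 counts in the H19KO library (exact Poisson interval 21226 to 21801) against 25732 in the WT library (25419 to 26048), a log2 ratio of -0.25 (-0.28 to -0.22). Dnmt1, which dividing somatic cells also express, held 5662 of the H19KO counts and 6174 of the WT counts. Without it the summed log2 ratio was -0.30 (-0.33 to -0.26), or 81.5% of the WT level.

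**Figure D1:**
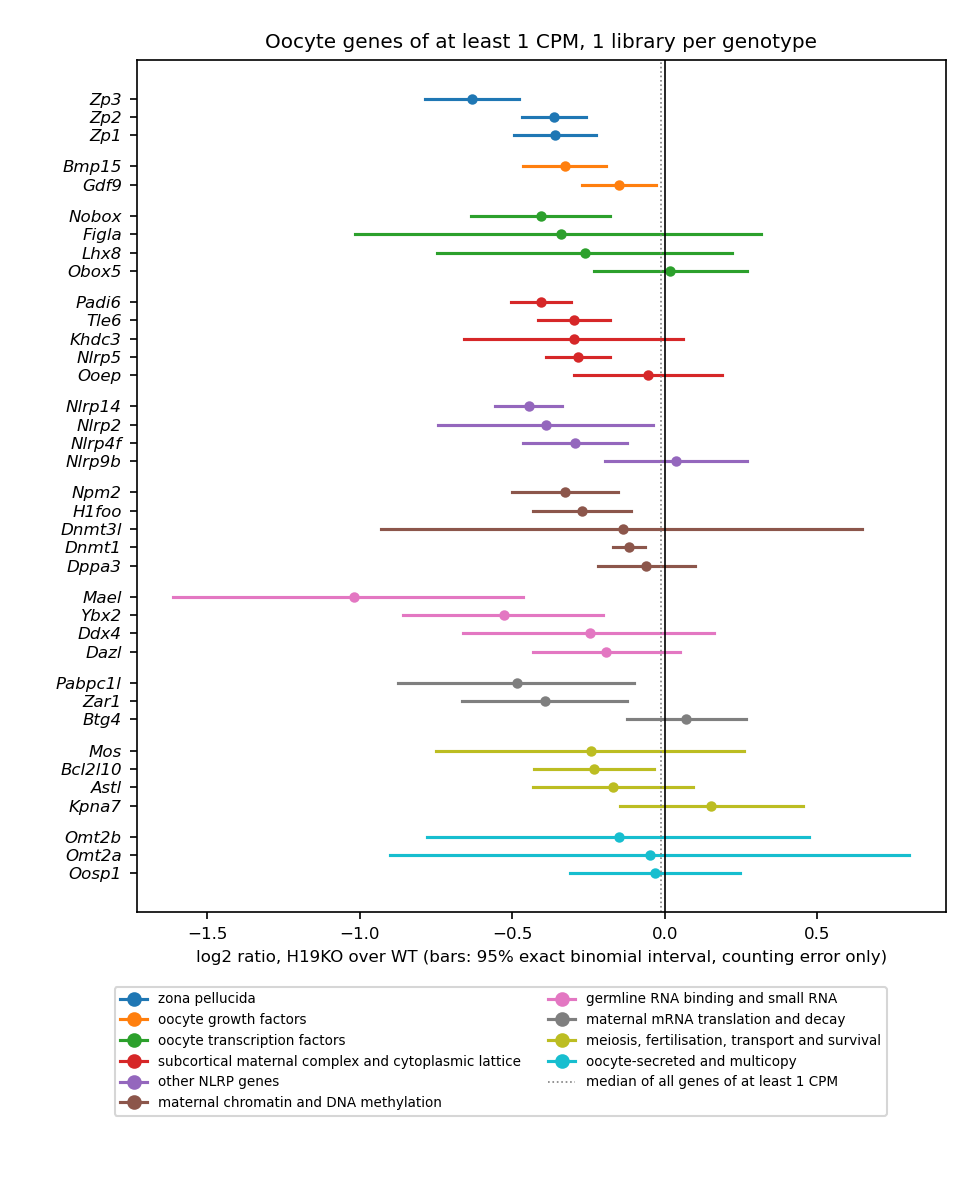
Log2 ratio (H19KO over WT, x axis) of the 37 oocyte genes of at least 1 CPM, grouped by role, with 95% exact binomial intervals for counting error. Points lie left of 0 for 33 genes, and 20 intervals lie wholly left of it.

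The sizes were small. A point ratio past 1.5-fold lower was found for 2 of the 37 members (5.41%), Zp3 and Mael, where 3.63% of all genes passed that limit downwards. No member passed it upwards, against 4.54% of all genes. None had its whole interval past 2-fold lower or higher, against 0.388% and 0.610%. Such shares leave few or no genes to expect among 37, so these counts do not set the members apart from other genes. The quartiles of the members lay at log2 ratios of -0.36 and -0.14, beside -0.16 and 0.14 for all 13928 genes of at least 1 CPM. The ratio of the summed members without Dnmt1 lay inside the interval of 26 of the 37 members (70.3%), and inside that of 29.3% of all genes of at least 1 CPM, or 36.2% within the CPM range without Dnmt1. That ratio comes from the members themselves and wide intervals hold it easily, so the share is a description. Zp3, Padi6, Nlrp14 and Mael had intervals wholly below it, and Gdf9, Obox5, Nlrp9b, Dppa3, Dnmt1, Btg4 and Kpna7 wholly above it.

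**Figure D2:**
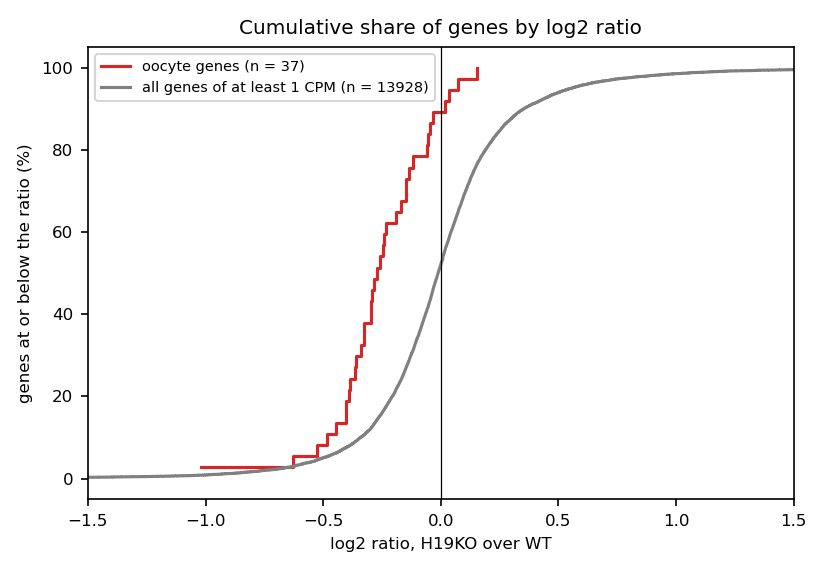
Cumulative share of genes (y axis, %) at or below each log2 ratio (x axis) for the 37 measured oocyte genes and for all 13928 genes of at least 1 CPM. The oocyte curve lies left of the other through the middle of the range and ends at 0.15, while the curve of all genes goes on to higher ratios.

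Several oocyte transcription factors, FIGLA and SOHLH1 among them, are basic helix-loop-helix proteins that bind the E-box, CANNTG. The stretch of 250 bases before the start of a gene was searched on both strands for CANNTG and for its form CACCTG, in 39 RefSeq starts (build GRCm38.p6) that matched 31 of the 40 members; the other 9 are Npm2, Gdf9, Zp2, Nlrp14, Bcl2l10, Dppa3, Zp1, H1foo and Mos. Each CACCTG is also counted as a CANNTG. Of the matched members, 28 (90.3%) held an E-box in front of at least 1 start, against 69.3% of all 27025 genes with a start, and 16 (51.6%) held the CACCTG form, against 19.4%. The NOBOX element, searched as TAATTG or TAATTA, stood before 5 members (16.1%), Bmp15, Nlrp5, Ooep, Nlrp9b and Omt2b, against 12.9% of all genes. These are matches of letters, not measured binding. Shown first are the upstream stretches of Mael and Zp3, the members with the lowest ratios, then those of Btg4 and Kpna7, the members with the highest, each 5′ to 3′ with its E-boxes in capitals.
Mael, chr1:166238745-166238994, minus strand: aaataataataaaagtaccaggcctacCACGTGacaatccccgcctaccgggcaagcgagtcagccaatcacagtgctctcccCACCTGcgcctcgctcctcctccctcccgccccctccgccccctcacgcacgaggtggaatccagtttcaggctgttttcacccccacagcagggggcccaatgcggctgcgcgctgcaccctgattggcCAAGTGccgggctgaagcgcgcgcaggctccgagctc
Zp3, chr5:135979855-135980104, plus strand: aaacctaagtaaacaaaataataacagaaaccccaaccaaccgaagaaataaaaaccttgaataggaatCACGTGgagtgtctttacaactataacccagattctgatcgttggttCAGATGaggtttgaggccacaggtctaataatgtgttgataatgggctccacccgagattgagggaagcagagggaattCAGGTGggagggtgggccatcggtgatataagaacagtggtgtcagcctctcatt
Btg4, chr9:51115751-51116000, plus strand: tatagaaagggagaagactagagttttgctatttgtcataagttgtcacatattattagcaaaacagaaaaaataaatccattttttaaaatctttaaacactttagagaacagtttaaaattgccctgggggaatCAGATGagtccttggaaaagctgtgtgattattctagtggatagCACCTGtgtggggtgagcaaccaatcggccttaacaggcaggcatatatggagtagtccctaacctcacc
Kpna7, chr5:145009637-145009886, minus strand: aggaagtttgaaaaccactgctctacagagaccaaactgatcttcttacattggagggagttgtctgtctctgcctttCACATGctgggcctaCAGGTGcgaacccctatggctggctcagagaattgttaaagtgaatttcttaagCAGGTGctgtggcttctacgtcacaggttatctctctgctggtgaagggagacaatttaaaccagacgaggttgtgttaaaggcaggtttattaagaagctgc
Both ends of the list carry E-boxes. Mael has 3, at 223, 167 and 37 bases before the start, and the middle one is CACCTG. Zp3 has 3, at 181, 134 and 55 bases, and the nearest reads CAGGTG, which is CACCTG on the other strand. Btg4 has 2, at 114 and 70 bases, the nearer one CACCTG, and Kpna7 has 3, at 172, 157 and 103 bases, of which 2 read CAGGTG. GENCODE M21 also has starts of Btg4 and Kpna7 farther upstream. Among members with a matched start, 6 of the 13 called lower and 8 of the 15 spanning equal held the CACCTG form.

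The egg coat genes had the lowest summed level of the roles, 74.6% of WT (log2 -0.42, -0.49 to -0.35). They encode the glycoproteins of the zona pellucida, the matrix that sperm bind and cross. Zp3 (chr5:135980099-135988624, plus strand; gene positions are in mm10), needed to build the coat, had 573 counts in the H19KO library against 892 in the WT library, a log2 ratio of -0.63 (-0.78 to -0.48). Zp2 (chr7:120126772-120145291), which sperm bind, had 1325 against 1714 counts (-0.36, -0.47 to -0.26). Zp1 (chr19:10914287-10920632), which cross-links the filaments, had 815 against 1051 (-0.36, -0.49 to -0.23). The ratio of Zp3 lay below those of its partners: its interval did not reach that of Zp2 and met that of Zp1 only at the edge. Per kilobase of exon, Zp3 had 18.7 CPM in the H19KO library against 29.0 CPM in the WT library, Zp2 21.0 against 27.1 CPM and Zp1 17.8 against 22.8 CPM. By these point values Zp3 was below Zp2 in the H19KO library and above it in the WT library. The levels per kilobase carry no interval and depend on exon length, so their order is a description only.

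The growth factors of the oocyte differed in size of ratio. Gdf9, which drives granulosa growth and cumulus expansion, had 1053 counts in the H19KO library against 1174 in the WT library, a log2 ratio of -0.15 (-0.27 to -0.03). Bmp15, its X-linked relative, had 783 against 988 (-0.33, -0.46 to -0.19). Both were lower, and their intervals overlapped. Gdf9 stood higher per kilobase of exon than Bmp15 in each library, at 22.4 against 11.1 CPM in H19KO ovary and 24.9 against 13.9 CPM in WT ovary.

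Of the 5 oocyte transcription factor genes, only Nobox was lower by its whole interval. Nobox, a homeobox factor required for oocyte growth beyond the primordial stage, had 283 counts in the H19KO library against 377 in the WT library (-0.41, -0.63 to -0.18). Figla, which activates the zona genes, had 36 against 46 (-0.34, -1.02 to 0.32), and Lhx8, a LIM homeobox factor of early oocytes, 68 against 82 (-0.26, -0.75 to 0.22). These point ratios were near that of Nobox, but so few counts leave a difference undetectable at this depth. Sohlh1, an early helix-loop-helix factor, was below 1 CPM with 14 against 19 counts. Obox5, of an oocyte homeobox family, stood apart with nearly equal counts, 269 against 267 (0.02, -0.23 to 0.27).

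The subcortical maternal complex is a protein assembly under the egg membrane that the embryo needs for its first divisions, and Padi6 is needed for the cytoplasmic lattices that store ribosomes and other maternal proteins. Together these 5 genes stood at 80.2% of WT (-0.32, -0.38 to -0.26). Padi6 (chr4:140727355-140742643), with 1509 counts in the H19KO library against 2009 in the WT library, had a log2 ratio of -0.40 (-0.50 to -0.31). Nlrp5, the founding member also called Mater, had 1342 against 1643 (-0.28, -0.39 to -0.18). Tle6, a core subunit, had 1069 against 1321 (-0.30, -0.42 to -0.18). Those 3 abundant members were all lower, with Padi6 the lowest, and their intervals overlapped. Khdc3, a KH-domain subunit, had 119 against 147 counts (-0.30, -0.66 to 0.06) and spanned equal with a wide interval. Ooep, another KH-domain subunit, had 277 against 289 (-0.05, -0.30 to 0.19), the ratio nearest to equal in the complex.

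Other NLRP genes, relatives of Nlrp5 expressed in oocytes, were lower in 3 of 4 cases. Nlrp14, a maternal-effect gene in mouse, had 1160 counts in the H19KO library against 1589 in the WT library (-0.45, -0.56 to -0.34), a ratio close to that of Padi6. Nlrp4f had 516 against 636 (-0.29, -0.46 to -0.12) and Nlrp2, a maternal-effect gene, 120 against 158 (-0.39, -0.74 to -0.04). Nlrp9b spanned equal, with 309 against 303 (0.04, -0.20 to 0.27). Of the 6 members on chromosome 7, where H19 also lies (chr7:142575529-142578143), Zp2, Nlrp5, Nlrp2 and Nlrp14 were lower and Obox5 and Nlrp9b were not.

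**Figure D3:**
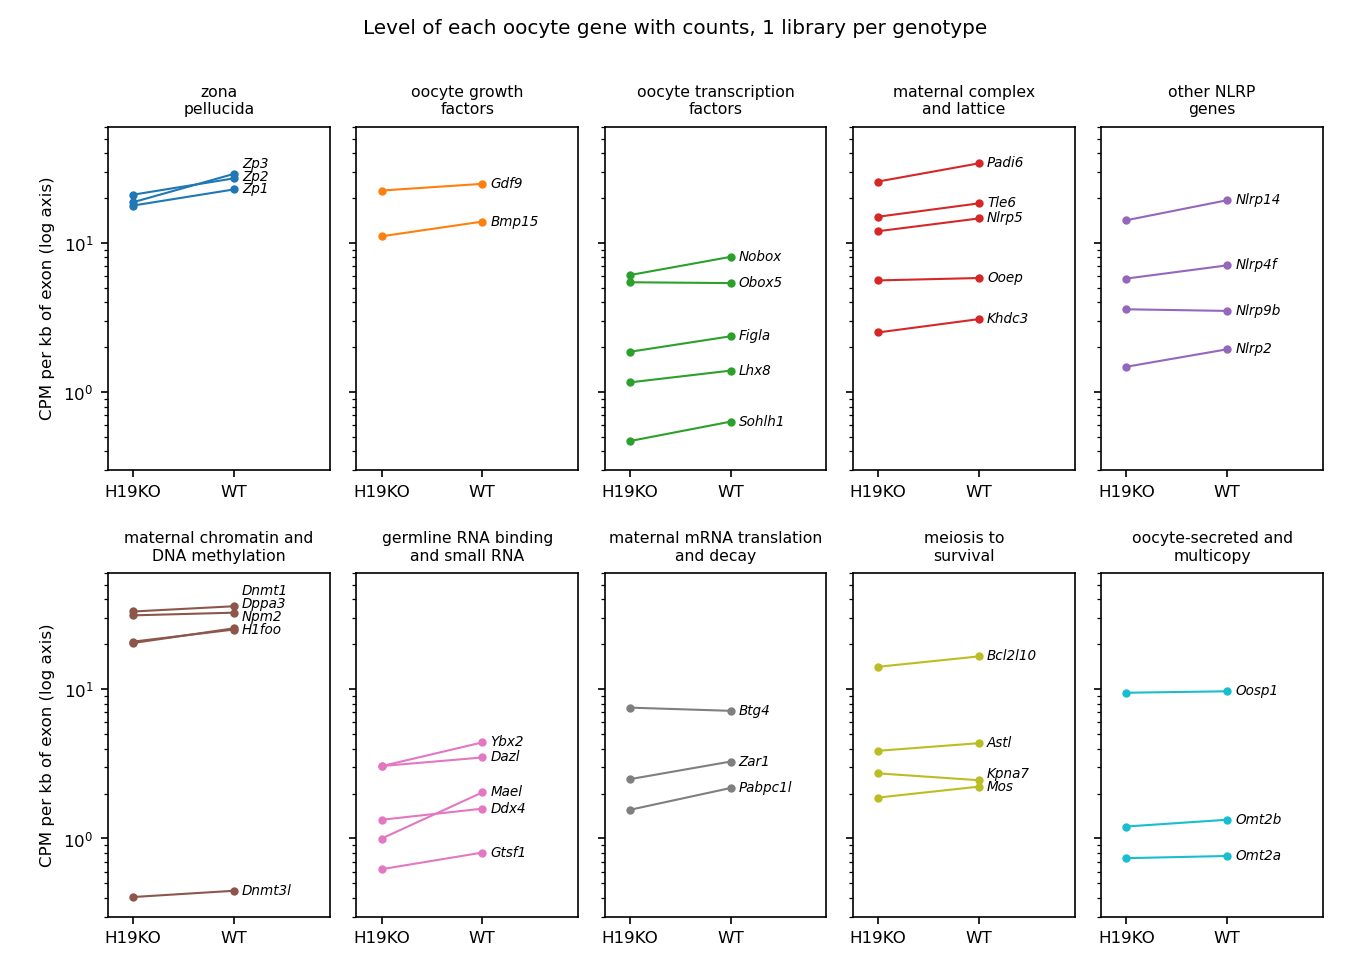
Level of each oocyte gene that had counts, in CPM per kilobase of exon (log y axis), in the H19KO library (left) and the WT library (right), by role. Lines slope down to the left for most genes, most steeply for Mael and Zp3, and Obox5, Nlrp9b, Btg4 and Kpna7 slope the other way.

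Genes for maternal chromatin and DNA methylation had mixed sizes. Npm2, the chaperone that remodels sperm chromatin after fertilisation, had 489 counts in the H19KO library against 617 in the WT library (-0.33, -0.50 to -0.15). H1foo, the oocyte linker histone, had 579 against 702 (-0.27, -0.43 to -0.11). Dppa3, which protects the maternal genome from demethylation in the zygote, had 645 against 676 (-0.06, -0.22 to 0.10) and spanned equal although its counts were close to those of H1foo. The maintenance DNA methyltransferase gene Dnmt1 was slightly lower, with a log2 ratio of -0.12 (-0.17 to -0.06). Its oocyte and somatic forms come from separate first exons and share a row, so this ratio mixes both sources. Dnmt3l, the cofactor that sets maternal methylation marks during oocyte growth, had 28 against 31 counts (-0.14, -0.93 to 0.65). Per kilobase of exon, Dnmt1 and Dppa3 were the highest members in the H19KO library, at 33.2 and 31.3 CPM, ahead of Padi6 at 25.8 CPM. In the WT library Dnmt1 had 36.0 CPM, and Padi6 with 34.1 CPM stood above Dppa3 with 32.6 CPM. These are point values without intervals, so their order is a description only.

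Germline RNA genes included the member with the lowest ratio. Mael (chr1:166201201-166238747), which helps piRNAs silence transposons in mouse germ cells, had 40 counts in the H19KO library against 82 in the WT library (-1.02, -1.61 to -0.47). That is 49.1% of the WT level, on few counts and with a wide interval. Ybx2, which binds and stabilises stored mRNA, had 133 against 193 (-0.53, -0.86 to -0.20). The pan-germ-cell genes were milder: the RNA helicase Ddx4 had 93 against 111 (-0.25, -0.66 to 0.16) and the translational regulator Dazl 270 against 310 (-0.19, -0.43 to 0.05), and both spanned equal. Gtsf1, another piRNA factor, was below 1 CPM with 20 against 26 counts.

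Genes that handle maternal mRNA were divided. Zar1, which binds maternal mRNA and is needed for the oocyte-to-embryo transition, had 200 counts in the H19KO library against 264 in the WT library (-0.39, -0.66 to -0.12). The poly(A)-binding protein gene Pabpc1l had 98 against 138 (-0.48, -0.87 to -0.10). Btg4, the adaptor that brings the deadenylase to maternal mRNA at meiotic maturation, had 445 against 426 (0.07, -0.12 to 0.27). The intervals of Btg4 and Zar1 met only at their edges.

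Meiosis, fertilisation, transport and survival genes stood together at 90.8% of WT (-0.14, -0.27 to -0.01), with an interval just below equal. The survival gene Bcl2l10 alone was lower by its interval, with 399 counts in the H19KO library against 471 in the WT library (-0.23, -0.43 to -0.04). Mos, the kinase that holds the egg in metaphase arrest, had 63 against 75 (-0.24, -0.75 to 0.26), and Astl, the cortical granule protease that cleaves ZP2 after fertilisation, 229 against 259 (-0.17, -0.43 to 0.09). Kpna7, an oocyte importin alpha, had 198 against 179 (0.15, -0.15 to 0.45), the highest ratio of the list. Its gene span overlaps that of Arpc1a on the opposite strand, and whether their exons overlap was not tested. The sources used here do not give the strand setting of the counting, so reads from any shared bases cannot be told apart. The same holds for Btg4 with Layn and Dnmt3l with Aire. The gene span of Npm2 overlaps that of Xpo7 on its own strand.

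Oosp1, which encodes an oocyte-secreted protein, and the multicopy genes were the closest to equal. Oosp1 had 213 counts in the H19KO library against 219 in the WT library (-0.03, -0.31 to 0.25). Omt2a had 25 against 26 (-0.05, -0.90 to 0.80) and Omt2b 43 against 48 (-0.15, -0.78 to 0.47). Omt2a and Omt2b lie 12.8 kb apart on chromosome 9, and Ooep is 46.5 kb beyond Omt2b. The 3 neighbours together had 345 against 363 counts (-0.07, -0.28 to 0.15). Oog1 had 0 counts in both libraries, which allows up to 0.130 CPM in the H19KO library and 0.129 CPM in the WT library by counting error alone.

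**Figure D4:**
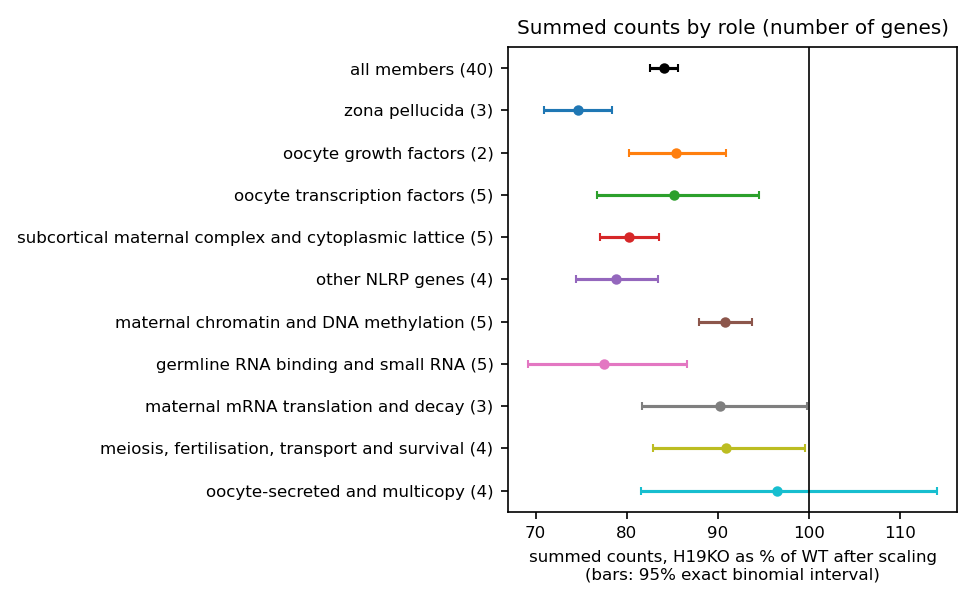
Summed counts of each role in the H19KO library as % of the WT library after TMM scaling (x axis), with 95% exact binomial intervals for counting error and the number of genes in brackets. Zona pellucida genes lie lowest at 74.6%, and the oocyte-secreted and multicopy genes highest at 96.4% with an interval across 100%.

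Copies limit some of these rows. Of all 76-base words, the read length, in the transcripts of Oog1 (GENCODE M21), 82.6% also occur in transcripts of other genes, chiefly Gm2042, Gm10436 and C87977. Those rows had 9, 174 and 218 counts in the H19KO library against 14, 212 and 218 in the WT library, and how reads that fit several of them were counted was not tested. Omt2a and Omt2b shared 31.2% and 29.4% of their words with each other. Khdc3 shared 31.1% with Gm20509 and Zar1 20.5%, chiefly with Gm42668. Another 28 members shared no word with any other gene, among them the zona genes, Padi6, Mael, Nobox and Btg4. The remaining 7 shared 0.0970% to 5.72%.

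Grouped by the stage at which they are known to appear, genes expressed from the primordial follicle on (Figla, Nobox, Sohlh1, Lhx8, Ddx4, Dazl) had 764 counts in the H19KO library against 945 in the WT library, a log2 ratio of -0.30 (-0.44 to -0.16). Genes that accumulate in growing oocytes (Zp1, Zp2, Zp3, Gdf9, Bmp15, Nlrp5, Padi6, Zar1, Npm2, Mos, Ooep, Khdc3) had 8548 against 10863, a log2 ratio of -0.34 (-0.38 to -0.30). The intervals overlapped, so a difference between the stages was not detectable at this depth. Every measured gene of both groups had a point ratio below equal. The remaining members were put in neither group. Among those are the 4 members with point ratios above equal (Obox5, Nlrp9b, Btg4 and Kpna7) and the lowest, Mael. Both sums therefore describe the chosen genes only. Neither abundance nor length ordered the ratios. Across the 37 measured members, which share the same libraries, the Spearman rank correlation of the log2 ratio with mean CPM was -0.13 and with exon length 0.03. The 23 members of at least 10 CPM had a median of -0.28 and the 14 below 10 CPM one of -0.25, while 16 of the 23 and 4 of the 14 were called lower, fewer counts giving wider intervals.

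Other oocyte genes outside the 40 were mixed. Of 54 listed, 47 had at least 1 CPM, and of these 14 were lower, 4 higher and 29 spanning, beside 24.0% of all genes lower and 22.2% higher. Their median log2 ratio was -0.12. Kit, the receptor through which granulosa cells activate oocyte growth, had 1428 counts in the H19KO library against 1862 in the WT library (-0.37, -0.48 to -0.27), and Wee2, the oocyte kinase that maintains meiotic arrest, 183 against 280 (-0.60, -0.88 to -0.33). Oog3, of the same family as Oog1, was the only one past 2-fold by its whole interval, with 32 against 153 counts (-2.23, -2.85 to -1.69). It shares 13.5% of its 76-base words with other genes. The other 11 lower ones were Sebox, Tcl1, Zbed3, Pou5f1, Uhrf1, Taf4b, Zar1l, Nlrp4b, Obox2, Nlrp4a and Ccnb3. Spin1, with 6232 against 5785 counts, Cnot6l, with 3486 against 3224, Fbxw15, with 296 against 214, and Tdrkh, with 40 against 17, were higher. Spin1 and Cnot6l are the most abundant of the list, and the summed list stood at 97.6% of WT. Use by somatic cells was not tested for any gene of this list, lower or higher.

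Markers of other ovarian cells differed between the same libraries, and their part in the result was not tested. The calls in these lists stand beside 24.0% of all genes lower and 22.2% higher. Many of these markers have high counts and so narrow intervals, with which small differences are called. Of 18 granulosa markers, 12 were lower and 4 higher, and their sum was 4887 CPM in the H19KO library against 6229 CPM in the WT library, or 78.5%. Inha had 19585 against 27765 counts and Gja1 45469 against 58177, while Ihh (454 against 1070) and Cyp19a1 (345 against 1052) were past 2-fold. Genes reported to respond to oocyte factors in mouse cumulus cells were lower in 9 of 12 cases and higher in 2, with a sum at 83.7% of WT. The glycolytic gene Aldoa had 16931 against 19703 counts. The 2 higher ones were Pfkp, also glycolytic, with 1795 against 1634 counts, and Slc38a3, with 1314 against 961. That list shares Amh with the granulosa list and includes cholesterol synthesis genes, and the corpus luteum list shares Lhcgr with the theca list. Corpus luteum markers summed to 74.3% of WT, with 6 of 7 lower and 1 higher, Prlr at 29217 against 33242 counts and Scarb1 at 17242 against 23939.

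The stroma went the other way. All 10 stroma and smooth muscle markers were higher, with 5419 CPM in the H19KO library against 3971 CPM in the WT library (Col3a1 40865 against 27804 counts, Acta2 18206 against 16377). Macrophage and leukocyte markers were higher in 6 of 8 cases and lower in 1, with 943 against 698 CPM (Cd74 7788 against 6027 counts, H2-Ab1 5440 against 3276). Surface epithelium markers were higher in 5 of 8 cases and lower in 1, with 207 against 180 CPM (Upk3b 881 against 576 counts, Lgr5 879 against 1110). Endothelial markers were lower in 4 of 7 cases and higher in 0, with 562 against 649 CPM (Cdh5 4001 against 4864 counts, Kdr 2463 against 2808). Theca and interstitial markers were mixed, 5 lower and 3 higher of 8, with 14118 against 14156 CPM (Hsd3b1 186482 against 195244 counts, Aldh1a1 60594 against 50457, Cyp17a1 2834 against 11243). Of 6 oviduct markers 2 reached 1 CPM, Ovgp1 with 134 against 33 counts and Tppp3 with 143 against 234. No marker of these somatic lists was at 0 in both libraries. CPM are shares of a library, so less RNA of one cell type and more of another cannot be told apart.

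**Figure D5:**
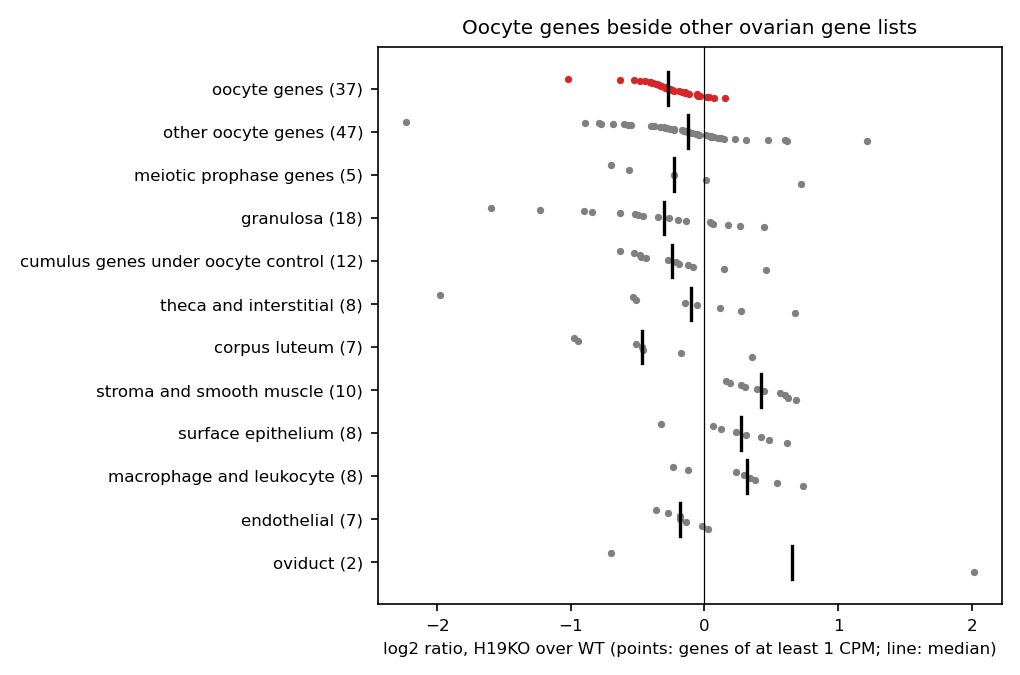
Log2 ratios (H19KO over WT, x axis) of the 37 measured oocyte genes (red) and of genes of other fixed lists (grey), with the list's median as a black line and the number of genes of at least 1 CPM in brackets. Medians of granulosa and corpus luteum markers lie left of 0 like that of the oocyte genes, and those of stroma, surface epithelium and macrophage markers lie right of it.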

How the data were processed

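The authors' deposited table holds whole-number counts per gene symbol, 1 column per library. In the submitters' processing notes build mm10 and, without roles, DESeq2 1.0.0, STAR 2.5.0a and Cufflinks 2.2.1 are named. How counts were made, on which strand, and whether they were rescaled before deposit is not given in the sources used here. DESeq2 size factors computed from the deposited counts were 1 for both libraries. If the counts were rescaled before deposit, the intervals treat rescaled numbers as counts. Per the labels' protocols, libraries were stranded and read with paired 76-base cycles.

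Libraries were scaled by TMM (edgeR 4.0.16) over all rows. Log2 ratios use scaled counts plus 0.5. Intervals of ratios are Clopper-Pearson intervals of the H19KO share of a gene's counts. They were tested on simulated data. Shares over all genes use the 13928 whose mean reached 1 CPM. Summed counts include members below that. Exon lengths and positions are from GENCODE M21 (mm10), which held all 40 members. The members, lists, limits and alternatives were chosen with earlier results of these data known. All members were named, with ratios where they reached 1 CPM. From each other list the 2 most abundant measured genes and any past 2-fold by the whole interval were named, except a gene that is not reported here. Kit, Wee2, the remaining other oocyte genes called, Pfkp and Slc38a3 were added after their values were seen. Motifs were chosen after the counts were seen. Python 3.11.15, scipy 1.17.1 and R 4.3.3 were used.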

Additional observations from a re-analysis of the deposited data

How the results depend on the processing

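No paired analysis was possible because only 1 library stands for each genotype, and no replicate could be left out. Alternatives were scaling by DESeq2 1.42.0 size factors, by total counts or by totals that leave out the 10 most abundant genes. The size factors were 1 for both libraries, so that alternative left the deposited counts unscaled. Others were a minimum of 5 CPM or no minimum, 5 added to each count, and the mean of members. Another left out 5 members taken to be used by somatic cells too (Dnmt1, Ybx2, Pabpc1l, Bcl2l10 and Kpna7). Somatic use of these 5 was not tested here. Members called lower numbered 16 to 20, members called higher 0, and the median log2 ratio lay between -0.29 and -0.26. Members past 1.5-fold lower were 1 with a minimum of 5 CPM, which leaves out Mael. They were 1 at a limit of 2-fold and 14 at a log2 limit of 0.32, as a stricter or looser limit must give. The summed log2 ratio was -0.30 without Dnmt1 and -0.30 without the 5 members, since Dnmt1 holds many of the counts. The 148 values of single members under another scaling or added count stayed inside the member's interval. Another scaling shifts all ratios by nearly the same amount, which is small beside even the narrowest interval. For scaling that outcome was therefore fixed in advance. Within the CPM range of the measured members, 23.3% of genes were called lower. Depth limits the rarer members: intervals were 0.10 to 1.70 log2 units wide, with a median of 0.48.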

Other observations

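Meiotic prophase genes, which are used by fetal oocytes and mostly silent in the adult ovary, gave 5 measured genes of 14 listed, and their directions were mixed. Smc1b, a meiotic cohesin subunit kept in adult oocytes, had 96 counts in the H19KO library against 157 in the WT library (log2 -0.70, -1.08 to -0.33). Sycp2, of the synaptonemal complex, had 66 against 40 (0.72, 0.14 to 1.33). The cohesin subunits Stag3, with 24 against 36 counts, and Rec8, with 43 against 43, spanned equal, as did the recombination gene Msh4 with 28 against 33. The list's 13 rows summed to 351 against 400 counts (-0.18, -0.39 to 0.03).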
